A study of Mus musculus with 6 samples.

Results

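The genes described here are 10 genes of antioxidant defence built around the transcription factor NRF2, taken from a fixed list of names: Nfe2l2, Keap1, Hmox1, Nqo1, Gclc, Gclm, Gpx3, Cat, Sod1 and Sod2. That list was chosen with earlier results of these data known, so counts of called members only describe it. All 10 were found among the 46603 gene identifiers of the count tables, and all 10 passed the filter on low counts that left 15828 genes for testing. RNA was sequenced from visceral fat, the fat around the abdominal organs, of untreated C57/Bl6 mice aged 18 months. Wild-type mice (WT) gave 3 libraries, and another 3 came from mice lacking nuclear myosin 1 (NM1 KO), a nuclear isoform of the motor protein encoded by Myo1c that takes part in transcription. The labels do not state which part of Myo1c was altered, whether the 3 libraries of a group came from separate animals, or the sex, so the p-values measure the spread between these libraries only. In bulk tissue, fewer cells of a type and less RNA per cell cannot be told apart.

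Of these genes, 1 passed the edgeR test for a difference between the groups, at an adjusted p under 0.05. Gpx3, which encodes a secreted, selenium-containing glutathione peroxidase, fell 3.66-fold in NM1 KO (95% interval 2.39 to 5.60). The transcripts of NRF2 itself, of its inhibitor KEAP1 and of the classical NRF2 targets Hmox1, Nqo1, Gclc and Gclm did not pass the test, nor did catalase and both intracellular superoxide dismutases. Among all 15828 genes tested 673 were called, 4.25% (1.47% lower and 2.79% higher in NM1 KO), so 1 lower call among 10 members stands beside a background of 1.47%. The median log2 fold change of the members was -0.089, against -0.0021 for all genes tested. Their group ranges did not overlap for 3 of 10, beside 29.9% of all tested genes.

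As background, cells meet superoxide with superoxide dismutases, which turn it into hydrogen peroxide, and peroxide with catalase and glutathione or thioredoxin peroxidases. NRF2 is held in the cytoplasm by KEAP1, which hands it to a CUL3 ubiquitin ligase for destruction. When KEAP1 is modified by oxidants or electrophiles, NRF2 escapes, pairs with small MAF proteins and binds antioxidant response elements in front of genes for glutathione synthesis, haem breakdown and quinone reduction. Because this control acts on the protein, the level of the Nfe2l2 transcript does not report NRF2 activity. Fat tissue is one of the sources of circulating GPX3.

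Throughout, CPM is counts per 1e+06 counts with TMM-scaled library sizes, log2 fold changes have WT subtracted from NM1 KO and stand beside their SE, and "called" means an adjusted p under 0.05 in the quasi-likelihood test of edgeR over all genes. Total counts lay between 24677758 and 33537818 per library, and the members were backed by 108 counts (Nqo1) to 44410 counts (Gpx3) in a library. Myo1c lay between 759 and 801 CPM in WT and between 452 and 697 CPM in NM1 KO (adjusted p = 0.151), and its count covers all isoforms, so it does not check the loss of NM1. Fat cell, macrophage and blood vessel markers were present in every library, while 5 pancreas markers and 5 epididymis markers summed to at most 0.0801 CPM in any library. The 5 skeletal muscle markers were present in every library and summed to 54.8 to 129 CPM in WT and 21.0 to 111 CPM in NM1 KO. Where these muscle transcripts came from was not tested. In WT replicate 2 the metallothioneins, Gsr, Maff and Sod2 were high, as described below. Libraries also differed in marker levels between the groups. The summed level of 12 macrophage markers was 2857 to 3847 CPM in WT and 5325 to 6484 CPM in NM1 KO, and that of 10 markers of lipid-associated macrophages 479 to 793 and 2015 to 4407 CPM. For 10 fat cell markers the sums were 28705 to 34937 CPM in WT and 19807 to 26603 CPM in NM1 KO, and for 12 endothelial markers 1149 to 1551 and 478 to 711 CPM. Stromal progenitor markers summed to 2434 to 3862 CPM in WT and 4305 to 4604 CPM in NM1 KO, and erythroid markers to 993 to 1103 and 437 to 849 CPM. Mesothelial markers, whose sums overlapped, were at 684 to 1044 and 482 to 723 CPM, with 2 of 6 called lower. Of the other lists, 4 of 12 macrophage, 8 of 10 lipid-associated macrophage and 4 of 8 stromal progenitor markers were called higher. In the endothelial list 7 of 12 were called lower. For fat cells 0 of 10 and for erythroid cells 0 of 6 tested markers were called, beside 4.25% of all genes. The log2 fold change was negative for 2 macrophage and 3 stromal progenitor markers and positive for 1 fat cell marker. The part of these shifts in the results on antioxidant genes was not tested.

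**Figure D1:**
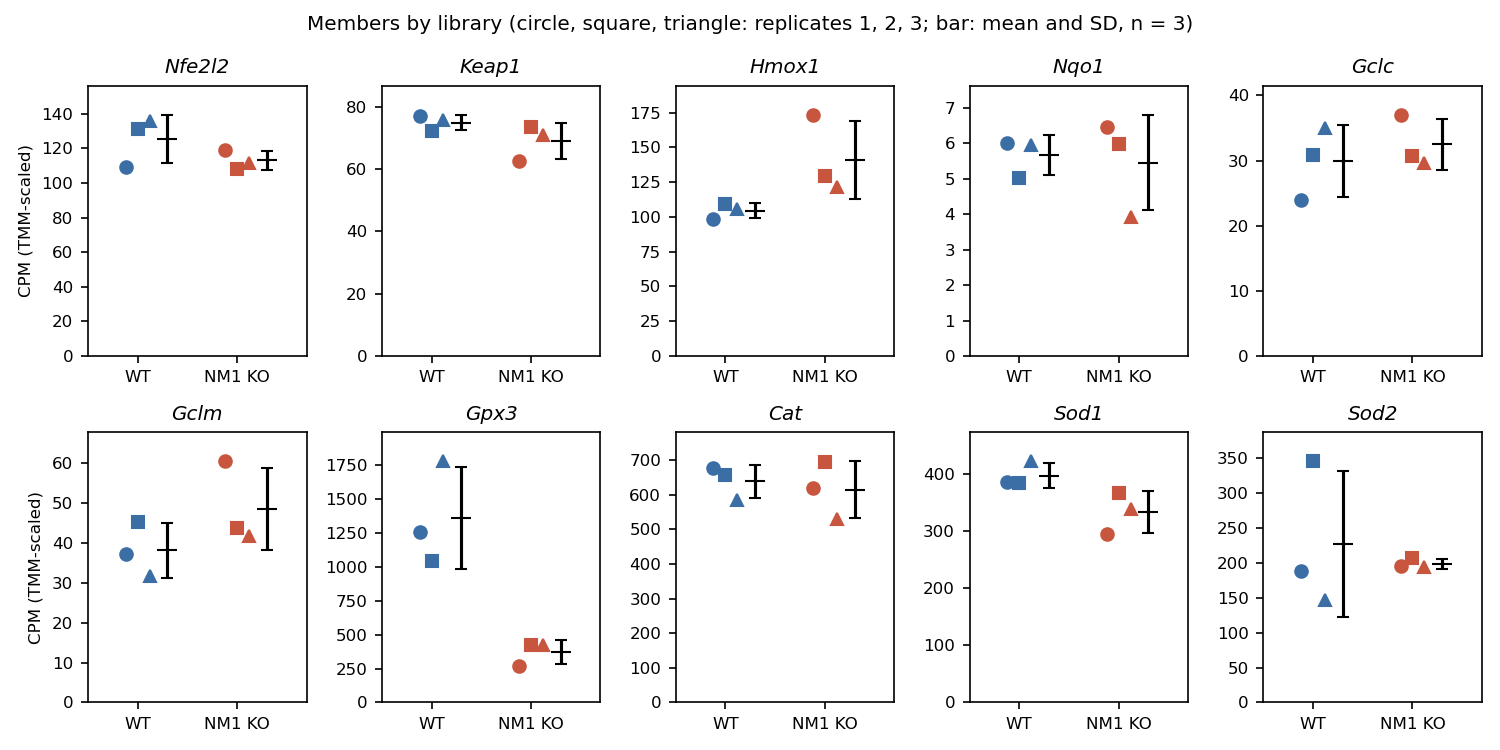
Level of each of the 10 genes in each library, in CPM on linear axes that start at 0, with WT in blue, NM1 KO in red, symbols for replicates 1 to 3 and black bars for the mean and SD (n = 3). Gpx3 lies between 1043 and 1780 CPM in WT and between 272 and 422 CPM in NM1 KO, and Sod2 has 1 WT library, replicate 2, at 346 CPM.

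Gpx3 (ENSMUSG00000018339, chromosome 11, 54902453 to 54910377 on GRCm38, plus strand) stood at 1261, 1043 and 1780 CPM in WT replicates 1 to 3 and at 272, 422 and 421 CPM in NM1 KO replicates 1 to 3. Every NM1 KO library lay below every WT library, and the lowest WT value lay well above the highest NM1 KO value. The mean fell from 1361 ± 378 (SD, n = 3) to 372 ± 86.7 CPM, a log2 fold change of -1.87 ± 0.26 with an adjusted p of 0.0213. Per kilobase of exon, Gpx3 was the most abundant of the 10 genes in WT (751 ± 209 CPM per kb) and the second in NM1 KO (205 ± 47.8). Catalase, next in WT at 245 ± 18.4 CPM per kb, was at 235 ± 31.4 in NM1 KO, where the ranges of both genes overlapped. The fold change kept its direction in all 17 alternative analyses, from -2.03 to -1.64, and it was called by DESeq2 (adjusted p = 2.3e-10) and limma-voom (adjusted p = 0.00902), which called 12.9% and 10.4% of all genes. With 1 library fewer the call was lost without WT replicate 1 (adjusted p = 0.0609), 2 (0.0614) or 3 (0.0859), or when NM1 KO replicate 3 was left out (0.0668). These fits called 0.225%, 0.0247%, 0.00608% and 0.0304% of all genes, at most 37 genes.

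The order of the levels per kb of exon in WT was Gpx3, Cat, Sod1 (99.96 ± 5.40 CPM per kb), Hmox1 (59.7 ± 3.11), Nfe2l2 (33.0), Sod2 (22.7 ± 10.5), Keap1 (16.0), Gclc (7.95), Gclm (6.05) and Nqo1 (3.65). Of the neighbours in that order, the WT ranges overlapped for Nfe2l2 and Sod2, for Sod2 and Keap1 and for Gclc and Gclm. In NM1 KO the order was the same but for Gpx3 and Cat, which changed places. There the ranges of Sod1 (83.9 ± 9.16 CPM per kb) and Hmox1 (80.7 ± 16.0) overlapped as well. By this measure the peroxide-removing enzymes Gpx3 and Cat were the most abundant of the 10 transcripts in both groups. The least abundant were the glutamate-cysteine ligase subunits and Nqo1. The length used is the union of all annotated exons, 3970 bases for Sod1 and 10008 for Sod2. A gene transcribed mainly as a shorter form therefore ranks too low, and which forms were present was not tested.

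Gpx3 shares chromosome 11 with the targeted gene, Myo1c, from which it lies 20.7 Mb away. Among 9758 genes annotated as protein-coding and averaging 10 CPM or more, the profile over the 6 libraries closest to that of Gpx3 was that of Mmp9, which encodes the matrix protease gelatinase B (root mean square distance of centred log2 CPM 0.163). AI661453 and Snhg11 followed at 0.254 and 0.274. Mmp9 stood at 43.9, 37.4 and 64.5 CPM in WT and at 8.08, 16.9 and 11.7 CPM in NM1 KO. Those distances describe likeness over 6 libraries of 2 groups and nothing more.

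No other glutathione peroxidase was called. Gpx1, the cytosolic enzyme, was at 782 ± 40.8 CPM in WT and 695 ± 68.8 CPM in NM1 KO (log2 -0.17, 95% interval -0.46 to 0.12, adjusted p = 0.448). Gpx4, which reduces lipid peroxides in membranes, was at 848 ± 43.2 and 852 ± 84.9 CPM (interval -0.29 to 0.30, adjusted p = 0.981). Both carry selenocysteine like GPX3, as does selenoprotein P, the carrier of selenium in blood. Selenop lay at 1863, 984 and 1928 CPM in WT and at 3229, 2341 and 2448 CPM in NM1 KO, higher in each NM1 KO library than in any WT library but not called (log2 0.75 ± 0.28, adjusted p = 0.165). The selenoprotein genes Selenow (adjusted p = 0.763), Msrb1 (0.576) and Txnrd1 (0.689) were not called by edgeR either, where 4.25% of all genes were. Selenop, Selenow and Msrb1 were picked for this comparison after their values were seen, so it cannot show that the fall is particular to Gpx3.

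Neither the transcription factor nor its sensor passed the test, and the 95% intervals of both lay between -0.42 and 0.12 on the log2 scale. Nfe2l2 (ENSMUSG00000015839, chromosome 2, 75675513 to 75704641, minus strand), which encodes NRF2, was at 110, 131 and 136 CPM in WT and at 119, 108 and 112 CPM in NM1 KO. The groups overlapped, with the lowest value of all in NM1 KO replicate 2. Its log2 fold change was -0.15 ± 0.11 with a 95% interval of -0.42 to 0.12 (adjusted p = 0.467). Keap1 (ENSMUSG00000003308, chromosome 9, 21229730 to 21239361, minus strand), the inhibitor, was at 77.1, 72.3 and 75.7 CPM in WT and at 62.5, 73.5 and 70.9 CPM in NM1 KO. NM1 KO replicate 1 held the lowest Keap1 value, replicate 2 lay inside the WT range and replicate 3 just below it. The difference was -0.12 ± 0.10 on the log2 scale (interval -0.36 to 0.12, adjusted p = 0.514), and 0.063 once trends on GC content and transcript length were removed per library. Keap1 shares 510 of 4693 exonic bases with the antisense gene Gm16754, and since no strand setting is given its level is uncertain to that extent. The log2 ratio of Keap1 to Nfe2l2 counts within a library averaged -0.74 ± 0.20 for WT and -0.71 ± 0.19 for NM1 KO (two-sided exact permutation test, p = 1, where 3 against 3 libraries cannot go below 0.1).

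Hmox1 (ENSMUSG00000005413, chromosome 8, 75093621 to 75100589, plus strand) encodes the inducible haem oxygenase, which opens haem to biliverdin, iron and carbon monoxide. Its level was 98.5, 109 and 106 CPM in WT and 173, 129 and 121 CPM in NM1 KO. Each NM1 KO library lay above each WT library, and NM1 KO replicate 1 was the highest. The mean was 105 ± 5.45 CPM in WT and 141 ± 28.1 CPM in NM1 KO, a log2 fold change of 0.43 ± 0.15 that was not called (unadjusted p = 0.0221, adjusted p = 0.14). Among all genes 23.7% had an unadjusted p under 0.05. Without NM1 KO replicate 1 the value was 0.28 (adjusted p = 0.287), and DESeq2 gave an adjusted p of 0.0968. The 3 closest profiles were those of Ncf1 (distance 0.0515), a subunit of the phagocyte NADPH oxidase, Hcls1 (0.0672) and Arpc5 (0.0713). For Nfe2l2 they were those of Thap7 (0.0442), Nsmce3 (0.0463) and Scand1 (0.0468).

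Downstream of haem oxygenase, the biliverdin reductase gene Blvra was higher, while Blvrb was tested and not called. Blvra, which turns biliverdin into bilirubin, was at 43.0, 52.6 and 39.0 CPM in WT and at 69.8, 73.6 and 67.6 CPM in NM1 KO. It rose by a log2 of 0.65 ± 0.13 (adjusted p = 0.0421). The call was lost in 7 of 17 alternatives, among them upper-quartile scaling (log2 0.61, adjusted p = 0.0547) and each single library left out other than NM1 KO replicate 2 (log2 0.55 to 0.78, adjusted p 0.0640 to 0.145). Ferritin, which stores the iron set free, had log2 fold changes of 0.52 ± 0.14 for its light chain Ftl1 (adjusted p = 0.0876) and 0.30 ± 0.15 for its heavy chain Fth1 (adjusted p = 0.271), neither called. Both ferritin genes have near-identical copies in the genome, so their levels are uncertain.

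Nqo1 (ENSMUSG00000003849, chromosome 8, 107388225 to 107403206, minus strand), a quinone reductase and a widely used indicator gene of NRF2, was the least abundant of the 10. Its level was 6.03, 5.02 and 5.97 CPM in WT and 6.47, 5.98 and 3.94 CPM in NM1 KO. The groups overlapped fully, and the log2 fold change was -0.05 with an interval of -0.63 to 0.52 (adjusted p = 0.917), so the error covers changes between 1.54-fold lower and 1.43-fold higher. Set against Hmox1 within each library, the log2 ratio of Nqo1 to Hmox1 was -4.20 ± 0.21 in WT and -4.70 ± 0.26 in NM1 KO (p = 0.2 by the exact permutation test, adjusted p = 0.8 over 4 ratios).

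Glutathione is made by glutamate-cysteine ligase, whose catalytic subunit is encoded by Gclc and whose modifier subunit by Gclm. Gclc (ENSMUSG00000032350, chromosome 9, 77754535 to 77794485, plus strand) lay at 24.0, 30.8 and 35.02 CPM in WT and at 37.0, 30.8 and 29.7 CPM in NM1 KO. The groups overlapped (log2 0.12 ± 0.17, interval -0.28 to 0.51, adjusted p = 0.711). Gclm (ENSMUSG00000028124, chromosome 3, 122245557 to 122270732, plus strand) lay at 37.3, 45.3 and 31.6 CPM in WT and at 60.4, 43.7 and 41.6 CPM in NM1 KO. NM1 KO replicate 1 was the highest and the other NM1 KO libraries lay inside the WT range, with a log2 fold change of 0.35 ± 0.19 (adjusted p = 0.313). Of the 6291 exonic bases of Gclm, 296 are shared with Gm17494 on the opposite strand and 244 with the pseudogene Gm6061. The log2 ratio of Gclc to Gclm did not differ beyond its spread (-0.35 ± 0.43 in WT, -0.57 ± 0.12 in NM1 KO, p = 0.6 by the exact permutation test). Slc7a11, the cystine importer that feeds this synthesis, was near the limit of detection at 0.629, 0.288 and 0.0801 CPM in WT and 2.99, 0.946 and 1.46 CPM in NM1 KO (log2 2.41 ± 0.73, adjusted p = 0.108). DESeq2 called Slc7a11 (adjusted p = 0.0134), and with 1 library left out its log2 fold change ran from 1.85 (without NM1 KO replicate 1) to 3.22 (without WT replicate 1).

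Catalase breaks down hydrogen peroxide in peroxisomes. Cat (ENSMUSG00000027187, chromosome 2, 103453849 to 103485160, minus strand) was at 677, 657 and 585 CPM in WT and at 621, 694 and 530 CPM in NM1 KO. The groups overlapped, with both the highest and the lowest value in NM1 KO. Its log2 fold change was -0.06 ± 0.14 with an interval of -0.38 to 0.27 (adjusted p = 0.839), so the error covers changes between 1.30-fold lower and 1.21-fold higher.

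Of the intracellular superoxide dismutases, SOD1 is the copper and zinc enzyme of the cytosol and SOD2 the manganese enzyme of mitochondria. Sod1 (ENSMUSG00000022982, chromosome 16, 90220754 to 90226329, plus strand) was at 385, 384 and 422 CPM in WT and at 295, 367 and 338 CPM in NM1 KO. Every NM1 KO library lay below every WT library, by a small margin for NM1 KO replicate 2. On the log2 scale Sod1 differed by -0.25 ± 0.12, which was not called (interval -0.54 to 0.03, adjusted p = 0.254). Sod2 (ENSMUSG00000006818, chromosome 17, 13006846 to 13040063, plus strand) was at 188, 346 and 147 CPM in WT and at 195, 207 and 194 CPM in NM1 KO. WT replicate 2 alone was far above the rest, and the NM1 KO libraries lay between the other WT libraries and that one. The log2 fold change was -0.19 ± 0.29 with all libraries (adjusted p = 0.733) and 0.25 without WT replicate 2 (adjusted p = 0.363), so its sign rested on 1 library. The log2 ratio of Sod2 to Sod1 was -0.90 ± 0.69 in WT and -0.74 ± 0.13 in NM1 KO (p = 0.7, exact permutation test). Extracellular Sod3 was at 799 ± 248 and 771 ± 69.7 CPM (adjusted p = 0.915).

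Single libraries differed from the rest of their group in some genes of this kind. Of 142 tested genes on the member and pathway lists, 6 lay more than 2-fold from the other WT libraries in WT replicate 2 (5 higher, 1 lower), on the log2 scale. The number was 5 in WT replicate 1 and 2 in WT replicate 3, all lower, and 4, 3 and 0 in NM1 KO replicates 1 to 3, so WT replicate 2 had the most higher genes and about as many deviating genes in all as WT replicate 1. Mt1 and Mt2, the metallothioneins, which bind zinc and copper and scavenge radicals, were at 738 and 676 CPM in that library, 5.47 and 10.1 times the mean of the other WT libraries. Gsr, glutathione reductase, was at 133 CPM (2.28 times), Maff, a small MAF partner of NRF2, at 34.2 CPM (2.09 times) and Sod2 at 2.06 times. Gstt1 was at 0.496 times. Without this library the log2 fold changes went from -1.05 to 0.27 for Mt1, from -1.50 to 0.51 for Mt2 and from -0.47 to 0.046 for Gsr, and none was called either way. The summed level of 6 neutrophil markers was 61.0 CPM in WT replicate 2 and between 13.8 and 25.1 CPM in the other libraries, and the part of this in the raised values was not tested.

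**Figure D2:**
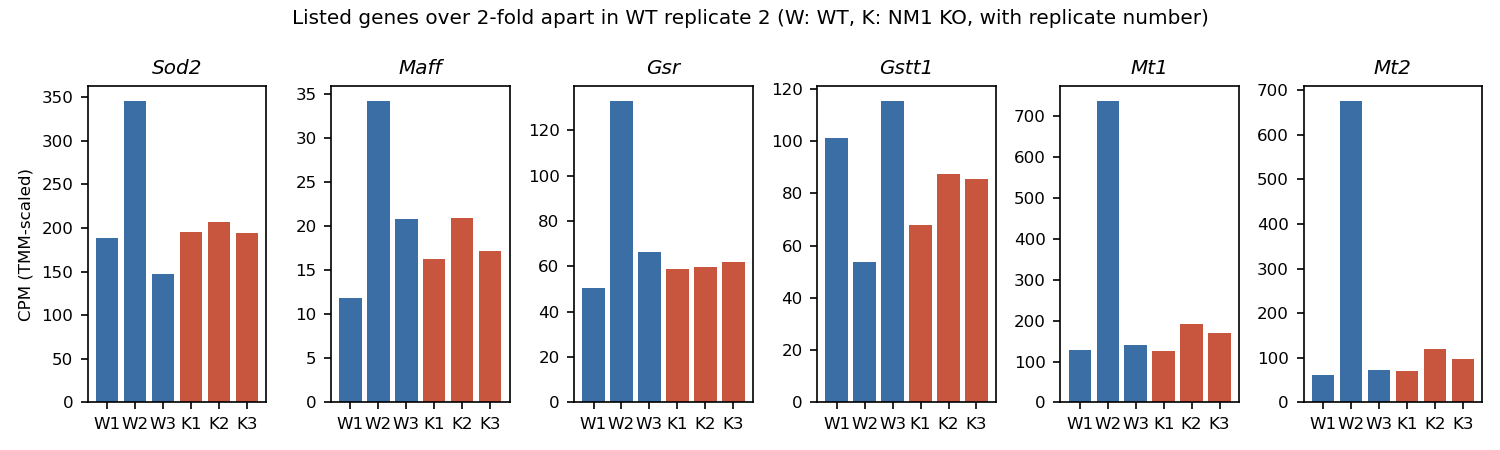
Level in CPM, on linear axes from 0, of the 6 listed genes that lie more than 2-fold from the other WT libraries in WT replicate 2, one bar per library (W1 to W3 in blue for WT, K1 to K3 in red for NM1 KO). Sod2, Maff, Gsr, Mt1 and Mt2 are highest in WT replicate 2, and Gstt1 is lowest there.

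Beyond the 10 members, 6 lists of 147 genes of the same pathway were read from the same fit, and 132 of these genes were tested. Of the 132, 10 were called higher and 1 lower (8.33%, beside 4.25% of all genes), with a median log2 fold change of 0.0026. These lists too were chosen with earlier results of these data known, so the difference between these shares is no evidence about the pathway. The called genes included Gsk3b among NRF2 regulators, Srxn1, Akr1b8 and Trim16 among other NRF2 targets, Glrx and Hpgds of the glutathione system, Sesn3 and Blvra among other antioxidant proteins, and Cyba and Maoa among oxidant producers. Leaving out WT replicate 1, 2 or 3, or NM1 KO replicate 3, left 0 of the 132 called. Leaving out NM1 KO replicate 1 left 4 called (1.51% of all genes were), and leaving out replicate 2 gave 19 (10.2% of all genes).

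**Figure D3:**
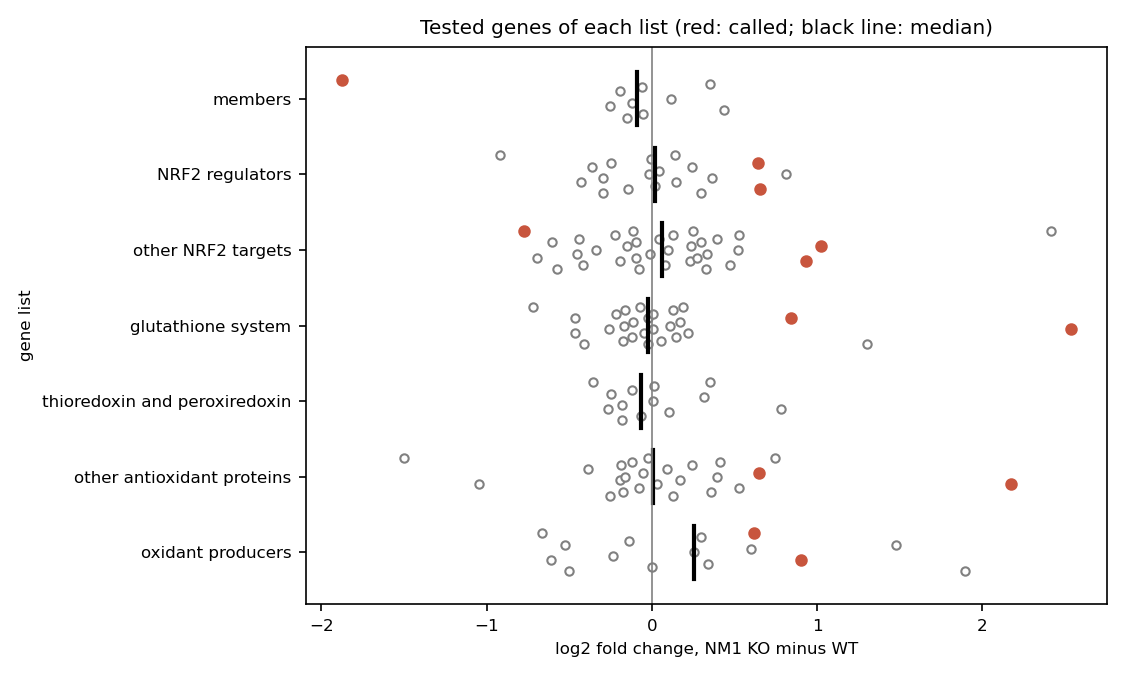
Log2 fold change (NM1 KO minus WT) of each tested gene in the members and in 6 pathway lists, with called genes in red, others open, and a black line at the median of each list; the vertical spread within a list has no meaning. Most genes lie within 1 of zero, and Gpx3 at -1.87 is the lowest point of the figure.

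The counts for each list below stand beside 2.79% of all genes called higher and 1.47% called lower. Among 19 regulators of NRF2, 2 rose, 0 fell, and the median was 0.022. Gsk3b, a kinase that marks NRF2 for destruction apart from KEAP1, went from 63.5 ± 2.89 to 99.1 ± 2.31 CPM (log2 0.64 ± 0.09, adjusted p = 0.0213), but was not called after correction for GC content and length (log2 0.31, adjusted p = 0.166). Bach1, the repressor that competes with NRF2 for its sites, differed by 0.25 ± 0.13 on the log2 scale (adjusted p = 0.302). Sqstm1, the autophagy receptor p62, which draws KEAP1 away, differed by 0.15 ± 0.13 (adjusted p = 0.536).

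Of 34 tested genes among other NRF2 targets, 2 rose and 1 fell, with a median of 0.061. Srxn1, sulfiredoxin, which restores overoxidised peroxiredoxins, stood at 40.5, 39.3 and 32.7 CPM in WT and at 86.3, 72.9 and 55.3 CPM in NM1 KO. It was higher in each NM1 KO library than in any WT library and rose by a log2 of 0.93 ± 0.18 (adjusted p = 0.0383). Akr1b8, an aldo-keto reductase, rose from 30.3 ± 1.96 to 61.6 ± 8.59 CPM (log2 1.02 ± 0.13, adjusted p = 0.0186). Trim16, a ubiquitin ligase, fell from 46.6 ± 4.63 to 27.3 ± 3.77 CPM (log2 -0.77 ± 0.14, adjusted p = 0.0342). Of 17 alternatives, Srxn1 lost its call in 5, Akr1b8 in 4 and Trim16 in 6. G6pdx, which makes NADPH for glutathione recycling, was not called (log2 -0.01, interval -0.39 to 0.37).

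The glutathione system had 2 of 27 tested genes higher and 0 lower, and the median was -0.022. Glrx, glutaredoxin, went from 13.2 ± 1.56 to 23.6 ± 1.15 CPM (log2 0.84 ± 0.14, adjusted p = 0.0277). Among 17 alternatives 7 lost this call, the edgeR fit with the replicate block among them (adjusted p = 0.0595). Hpgds, a glutathione-dependent prostaglandin D synthase of haematopoietic cells, was at 10.02, 6.07 and 7.37 CPM in WT and at 79.3, 19.1 and 37.5 CPM in NM1 KO. All NM1 KO libraries lay above WT, over a wide range (log2 2.53 ± 0.51, adjusted p = 0.0423), and without a filter on low counts the gene was not called at the same fold (log2 2.53, adjusted p = 0.142). Leaving out NM1 KO replicate 1 brought Hpgds to a log2 of 1.87 (adjusted p = 0.0511). None of 13 thioredoxin and peroxiredoxin genes was called by edgeR, and 2 had an unadjusted p under 0.05 (23.7% of all genes did). Of these Prdx1, the cytosolic peroxiredoxin and substrate of sulfiredoxin, was at 328, 346 and 298 CPM in WT and at 701, 514 and 456 CPM in NM1 KO. The groups did not overlap, with a log2 fold change of 0.78 ± 0.18 (adjusted p = 0.0566) that DESeq2 (adjusted p = 0.00183) and limma-voom (adjusted p = 0.0372) called. Prdx4, named after its value was seen, was the remaining gene of the pair (log2 0.35 ± 0.13, adjusted p = 0.163).

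Among 24 other antioxidant proteins tested, 2 rose. Besides Blvra this was Sesn3, a stress-induced sestrin, at 4.14, 3.32 and 3.45 CPM in WT and 24.9, 10.7 and 13.6 CPM in NM1 KO (log2 2.17 ± 0.33, adjusted p = 0.0259). On the side of oxidant production 2 of 15 tested genes rose and 0 fell (median 0.26). Cyba, the small membrane subunit of the NADPH oxidases, went from 115 ± 6.37 to 215 ± 54.5 CPM (log2 0.90 ± 0.18, adjusted p = 0.0409, call lost in 5 of 17 alternatives). Its catalytic partner in phagocytes, Cybb, was at 69.1, 41.7 and 70.6 CPM in WT and at 249, 112 and 144 CPM in NM1 KO, and was not called by edgeR (log2 1.48 ± 0.33, adjusted p = 0.0576) but was by DESeq2 and limma-voom. Maoa, a mitochondrial monoamine oxidase that releases peroxide, went from 43.4 ± 2.15 to 66.7 ± 3.01 CPM (log2 0.62 ± 0.10, adjusted p = 0.0259), and was not called after the same correction (log2 0.52, adjusted p = 0.223). Beside these stand the macrophage sums given above, and NM1 KO replicate 1 was the highest library for lipid-associated macrophage markers (4407 CPM), Hpgds, Sesn3, Cyba, Cybb, Hmox1, Gclm, Srxn1 and Prdx1. Blvra, also called higher, was highest in NM1 KO replicate 2. In NM1 KO replicates 2 and 3 the lipid-associated sums were 2468 and 2015 CPM. Hmox1, Gclm, Srxn1 and Prdx1 were likewise higher in replicate 2 than in replicate 3, but Hpgds, Sesn3 and Cybb were lower. The part of macrophage content in these rises was not tested.

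**Figure D4:**
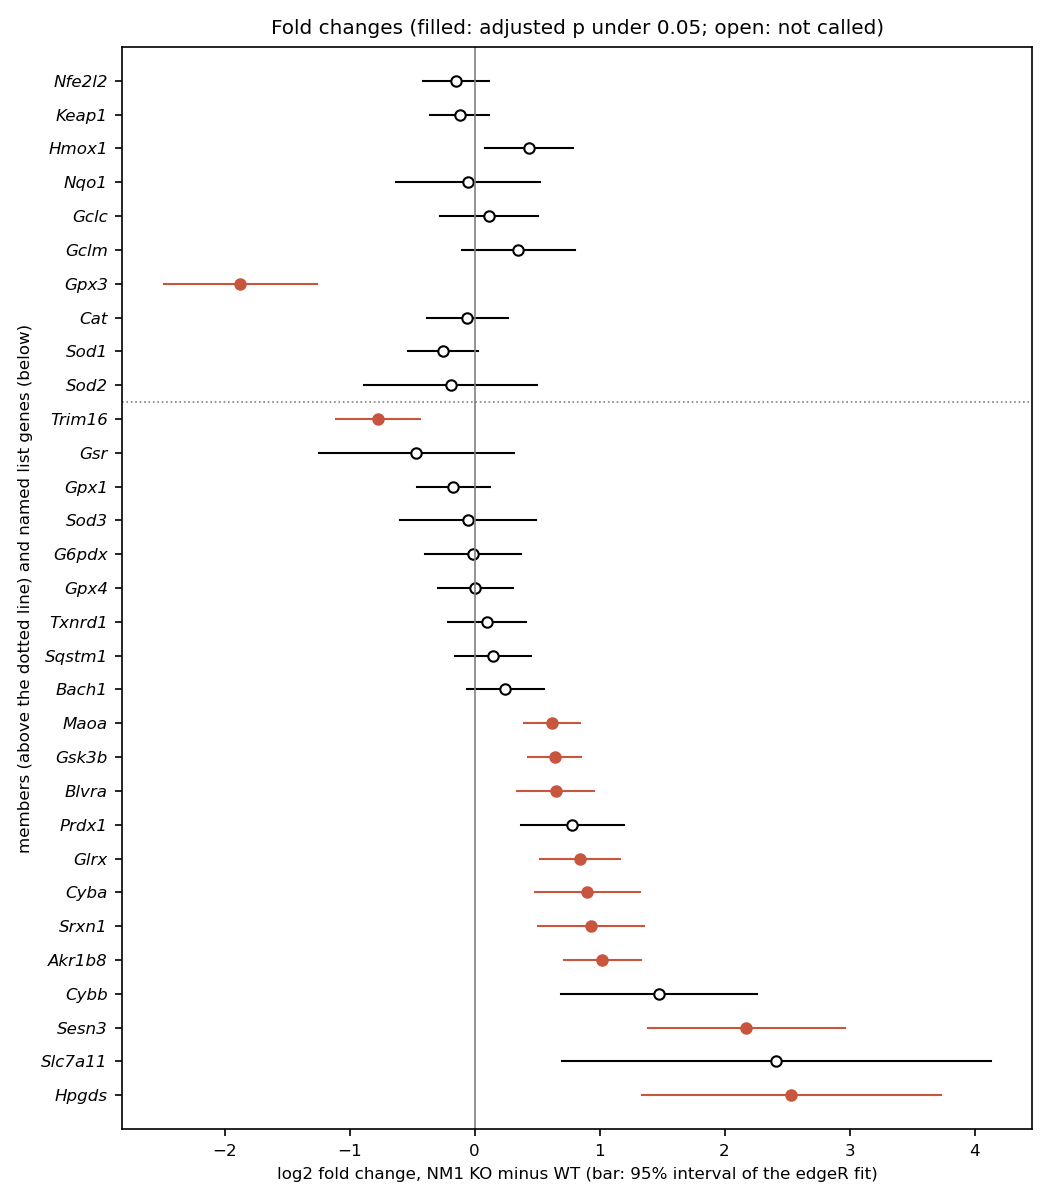
Log2 fold change (NM1 KO minus WT) with the 95% interval of the edgeR fit for the 10 members, above the dotted line, and for the named genes of the pathway lists, below it; filled red points were called and open points were not. Gpx3 at -1.87 is the only called member, and of the called list genes shown only Trim16 lies below zero.

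The promoters, from 250 bases before to 50 bases after the RefSeq start on GRCm38.p6, were searched on both strands for TGACNNNGC, the core of the antioxidant response element, and for TGAGNNNGC, its variant with G at the fourth base; neither can overlap the other at the same start. Of the members 8 of 10 had an entry, and Hmox1 and Gclc did not. TGACNNNGC was present in 3 of the 8 and in 12.4% of all 32851 promoters of this length, and TGAGNNNGC in 0 of the 8 and in 17.6% of all. The matches were TGACTCCGC in Nfe2l2, 240 bases before the start, TGACGGTGC on the reverse strand of Gclm, 134 bases before it, and TGACCACGC on the reverse strand of Sod1, 56 bases before it. Among called list genes, 9 of 11 had an entry. TGACNNNGC was found in 2 of them, Srxn1 and Blvra (TGACCGAGC on the reverse strand, 49 bases before the start), and TGAGNNNGC in 3, Gsk3b, Sesn3 and Srxn1. Neither pattern was found in the called genes Akr1b8, Glrx, Hpgds, Cyba and Maoa or in the member Nqo1. The Gpx3 and Sod2 windows begin after the gene starts given above, so sequence before those starts was not searched. Shown, picked by their outcomes, are the member that fell, a glutathione gene with a match and the NRF2 target that rose with matches. Capitals mark the matched letters, and the Gpx3 window holds none.
Gpx3 promoter, chr11:54902604-54902903, plus strand: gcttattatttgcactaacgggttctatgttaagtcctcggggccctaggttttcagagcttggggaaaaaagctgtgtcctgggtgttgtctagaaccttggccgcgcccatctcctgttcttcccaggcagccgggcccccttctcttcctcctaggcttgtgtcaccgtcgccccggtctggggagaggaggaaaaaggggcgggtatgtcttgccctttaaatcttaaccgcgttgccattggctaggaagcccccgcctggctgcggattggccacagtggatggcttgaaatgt
Gclm promoter, chr3:122245307-122245606, plus strand: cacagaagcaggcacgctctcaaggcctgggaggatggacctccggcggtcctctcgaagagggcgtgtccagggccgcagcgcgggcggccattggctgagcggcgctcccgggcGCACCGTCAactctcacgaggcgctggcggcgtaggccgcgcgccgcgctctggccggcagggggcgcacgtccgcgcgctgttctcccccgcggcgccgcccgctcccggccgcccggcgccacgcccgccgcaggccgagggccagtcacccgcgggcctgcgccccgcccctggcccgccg
Srxn1 promoter, chr2:152105274-152105573, plus strand: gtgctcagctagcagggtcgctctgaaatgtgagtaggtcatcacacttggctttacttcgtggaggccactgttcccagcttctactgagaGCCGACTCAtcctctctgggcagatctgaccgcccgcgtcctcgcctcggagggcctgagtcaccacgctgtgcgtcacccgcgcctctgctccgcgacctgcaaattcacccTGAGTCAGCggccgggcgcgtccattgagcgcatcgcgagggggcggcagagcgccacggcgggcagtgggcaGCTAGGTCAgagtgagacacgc
In the Srxn1 window the matches are TGAGTCGGC on the reverse strand, 158 bases before the start, TGAGTCAGC on the forward strand, 45 bases before it, and TGACCTAGC on the reverse strand, 28 bases after it. A match describes letters in a window and neither a bound site nor a cause of the levels above.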

How the data were processed

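RNA-seq of visceral fat was measured in 3 WT and 3 NM1 KO libraries, prepared with an NEBNext Ultra II kit for a NextSeq instrument, per the labels' protocols. The submitters' processing notes name HISAT2 2.0.4 on GRCm38 (mm10), HTSeq, SAMtools 0.1.19, Trimmomatic 0.36 and FastQC. Annotation and strand setting: not given in the sources used here. The authors deposited raw counts per Ensembl gene, with no normalization. Identifiers were matched to GENCODE M21 of the same build (46091 of 46603).

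The test was that of edgeR 4.0.16 under R 4.3.3 (filterByExpr, TMM, robust quasi-likelihood fit, genotype as the only term, two-sided, Benjamini-Hochberg over all 15828 tested genes, threshold 0.05). SE was computed as |log2 fold change| over the root of the F statistic, and 95% intervals use the t distribution of the fit. On simulated counts for this comparison over 15620 genes with 200 changed, 59% of 2-fold and 82% of 4-fold changes were recovered, and 4.73% of calls were false. The simulation gave genes of like level the same dispersion and held no deviating library, so its rates need not hold for the measured counts. Levels per kb use the union of exons. The chi-square per degree of freedom between libraries of a group was at least 38.2, so each counted as 1 sample. Ratios within a library had 0.5 count added and an exact permutation test over samples, adjusted over 4 ratios. Promoter sequences come from RefSeq.

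Members, gene lists and the naming rule were chosen with earlier results of these data known. The rule named the 10 members, 12 fixed pathway genes (Bach1, Txnrd1, Srxn1, Slc7a11, Gpx1, Gpx4, Gsr, Prdx1, Sqstm1, G6pdx, Cybb, Sod3), up to 6 called genes a list with a mean of at least 1 CPM, and the 3 closest profiles of Nfe2l2, Hmox1 and Gpx3 among genes of at least 10 CPM. Of the called list genes, 1 enters the counts and is otherwise not reported here. Settings varied in 17 ways: RLE and upper-quartile scaling, library totals, no low-count filter, at least 1 CPM in 3 libraries, non-robust dispersion, replicate block, GC and length offset (splines with 5 degrees of freedom), both together, each library left out, DESeq2 1.42.0 and limma-voom 3.58.1 with quality weights.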

Additional observations from a re-analysis of the deposited data

How the results depend on the processing

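Over 17 alternatives the log2 fold change of Gpx3 stayed negative, and no other member was called in any of them. Hmox1 and Gclm stayed positive and Nfe2l2 and Sod1 negative in all 17. With 3 libraries a group, leaving out 1 left between 1 and 1654 genes called, between 0 and 1 member and between 0 and 19 pathway genes. DESeq2 called 2198 genes (28 pathway genes) and limma-voom 1648 (21 pathway genes), and the cause was not tested. Counts were 644 to 917 under other scalings, filters and non-robust dispersion and 797 with the GC and length offset. Counts were low for Slc7a11 and, among the members, for Nqo1, with 108 to 201 counts a library. The SE of Nqo1 was 0.24, beside 0.26 for Gpx3 and 0.29 for Sod2, and the part of low counts in these errors was not tested.

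The replicate numbers are shared by both groups. Same-numbered libraries correlated at -0.039, -0.014 and 0.245 in their deviations from the group means, for replicates 1 to 3. Pairs with different numbers lay between -0.107 and 0.115, so the pair of replicate 3 was the highest. With 3 libraries a group these values cannot tell whether a shared number marks a pairing. With the replicate block 336 genes (267 of the 673), the same member and 6 pathway genes were called, and not every library correlated best with its own number.

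Signs that turned, none in a called gene and the cause not tested: Gpx4 with upper-quartile scaling (-0.028), library totals (-0.020) and the 1 CPM filter (-0.00029). With the GC and length offset Keap1 was 0.063, Txnrd1 -0.021, Gpx1 0.024, G6pdx 0.039 and Sod3 0.038, and with the replicate block added 0.062, -0.010, 0.026, 0.042 and 0.084. With limma-voom Sod2 was 0.069 and Sod3 0.054. Leaving out 1 library gave ranges of -0.17 to 0.14 for Nqo1, -0.021 to 0.24 for Gclc, -0.15 to 0.042 for Cat, -0.43 to 0.25 for Sod2, -0.048 to 0.10 for Gpx4, -0.73 to 0.046 for Gsr, -0.16 to 0.11 for G6pdx and -0.27 to 0.19 for Sod3. The differences in log2 ratio ranged from -0.36 to 0.028 (Gclc to Gclm), -0.15 to 0.54 (Sod2 to Sod1) and -0.057 to 0.14 (Keap1 to Nfe2l2).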
